A study of Mus musculus with 13 samples.

Results

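Gamma delta intraepithelial T cells (γδ IELs) were examined in single-cell RNA-seq libraries of colon tumors and adjacent colon mucosa. The γδ IELs were chosen by measured UMIs. A barcode needed a minimum of 500 UMIs and 200 genes, a mitochondrial share below 25%, and a match to a rule on 11 genes. The rule asked for at least 2 UMIs of Cd3d, Cd3e and Cd3g together, at least 1 UMI of Trdc, and at least 1 UMI of Cd8a, Cd160 and Gzma together. It also asked for 0 UMIs of Cd4, Il17a, Il23r and Cd79a. The rule found 1356 γδ IELs among 118892 retained barcodes of 137591 deposited. Of these, 1197 came from 25021 retained barcodes of mucosa and 159 from 93871 retained barcodes of tumors.

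The study asked how a diet supplemented with folate and its cofactors bears on colon tumors. The libraries were 10 colon tumors and 3 samples of adjacent mucosa from 3 mice. Every animal carried ApcMin/+ and p16cis/cis on C57BL/6J and received the supplemented diet, so that no library came from a control diet or from a wild-type colon. ApcMin is a truncating germline allele of the tumor suppressor Apc, and p16cis is an engineered allele whose p16 promoter gains methylation with age in part of the cells. Both alleles are in the germline, while the methylation itself need not be present in every cell. Mouse A (24 weeks) gave mucosa 2 and tumors 5, 6, 7 and 8. Mouse B (23 weeks) gave mucosa 3 and tumors 9 and 10, and mouse C (20 weeks) gave mucosa 1 and tumors 1, 2, 3 and 4. Mucosa was dissociated with EDTA and TrypLE and tumors with a tumor dissociation kit, so that tissue and dissociation cannot be told apart in any comparison of mucosa with tumors.

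T cells carry an antigen receptor built either from α and β chains or from γ and δ chains. In the gut, γδ T cells lie between the epithelial cells as intraepithelial lymphocytes, where many carry a CD8αα homodimer in place of CD8αβ, hold granzymes, and are retained through the integrin CD103, the product of Itgae, which binds E-cadherin. They are known for epithelial surveillance and repair, and their survival depends on IL-15 and on the aryl hydrocarbon receptor. Another group of γδ T cells makes IL-17, and the rule left out barcodes with a UMI of Il17a or Il23r.

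The libraries held 84883382 to 116133079 UMIs in mucosa and 57221300 to 93157039 in tumors. The median γδ IEL held 3638, 1561 and 1974 UMIs in mucosa 1, 2 and 3, and between 3138 and 4277 in the tumors. The labels named 7 of the 13 libraries as female, while Ddx3y, a Y-linked gene, stood between 29.1 and 50.7 CPM (UMIs per 1000000 UMIs summed over the barcodes in question) in all 13 and Xist between 0.0236 and 0.129 CPM. Any pair of libraries shared 14 to 61 barcode sequences (median 28 over 78 pairs). No barcode sequence was shared between γδ IELs of different libraries, and 46 γδ IELs had a barcode sequence that also occurred in another library outside the γδ IELs.

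RNA of other cell types was present in these barcodes and differed between the tissues. The summed level of 18 epithelial genes in γδ IELs was 4816 to 25715 CPM in mucosa, with mucosa 1 the lowest, and 73.9 to 10688 CPM in all 10 tumors. The 12 neutrophil genes ran the other way, at 4.05 to 18.7 CPM in mucosa and 112 to 17084 CPM in tumors. The 8 B and plasma cell genes summed to 43.4 to 183 CPM in mucosa and 212 to 1932 CPM in tumors, although Cd79a was at 0 by the rule. A barcode with at least 10 epithelial UMIs or at least 3 UMIs of neutrophil, macrophage or B cell genes was called mixed. By that measure 261 of the 1197 mucosal γδ IELs and 121 of the 159 tumor γδ IELs were mixed. The part of other cells' RNA in the differences between the tissues was not tested beyond the values given beside some of the results.

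The chosen barcodes carried the genes that mark γδ IELs at levels above those of all other barcodes pooled. Unless tumors 5 and 9 are named, levels per gene in tumor γδ IELs cover the 8 tumors with at least 10 γδ IELs. Trdc, the δ constant chain (GRCm38 chr14:54142851-54148868), stood at 903, 746 and 515 CPM in mucosa 1, 2 and 3 and at 331 to 2112 CPM in the tumors, with 2.07 CPM in other mucosal barcodes and 9.59 CPM in other tumor barcodes. Gzma, granzyme A, stood at 10127 ± 4259 CPM (SD, n = 3) in mucosa and 12548 ± 8376 CPM (SD, n = 8) in tumors. Cd160, a receptor of innate-like lymphocytes, stood at 615 ± 198 CPM in mucosa and 301 ± 117 CPM in tumors. Trdc, Gzma and Cd160 chose the barcodes, so that these levels are a description.

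3 markers were not used by the rule. Tcrg-C2, a γ constant chain (chr13:19304649-19307551), stood at 249 ± 93.7 CPM in mucosal and 157 ± 44.0 CPM in tumor γδ IELs, against 9.39 and 1.88 CPM in other barcodes. Trgv2, a γ variable segment (chr13:19336573-19337167), stood at 186 ± 151 and 152 ± 58.4 CPM, against 7.66 and 1.80 CPM. Itgae stood at 315, 105 and 180 CPM in mucosa 1, 2 and 3 and at 73.4 to 349 CPM in tumors (median 226), against 8.05 and 5.70 CPM in other barcodes. The 3 markers thus stood above the pool of all other barcodes, most of which are not T cells, and Itgae overlapped between mucosa and tumors. They did not set the class apart from the mucosal T cell barcodes that met every criterion but Trdc, where Tcrg-C2, Trgv2 and Itgae stood at 235, 192 and 188 CPM.

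Genes of IL-17-type γδ T cells outside the rule were near 0. Sox13, a transcription factor of these cells, had 12 UMIs over the mucosal γδ IELs and 1 UMI over the tumor γδ IELs of the 8 libraries with at least 10 such barcodes. Il17f, a cytokine related to IL-17A, had 0 and 1 UMIs.

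The Trdc criterion was close to the detection limit for part of the class. Exactly 1 Trdc UMI was found in 37.9% of mucosal and 27.7% of tumor γδ IELs. Tcrg-C1, the other major γ constant chain, stood at 582 CPM over mucosal γδ IELs with 2 or more Trdc UMIs, at 396 CPM over those with exactly 1, and at 143 CPM over the 2832 barcodes that met every other criterion with 0 Trdc UMIs. In tumors the same 3 levels were 284, 202 and 35.1 CPM. Tcrg-C2 stood in that order at 285, 195 and 235 CPM in mucosa and 151, 130 and 65.2 CPM in tumors, Trgv2 at 228, 145 and 192 CPM and 146, 139 and 58.0 CPM, and Itgae at 219, 209 and 188 CPM and 223, 161 and 95.7 CPM. In mucosa Tcrg-C2 and Trgv2 were thus lower in γδ IELs with 1 Trdc UMI than in barcodes with 0. Cd8b1, the CD8 β chain of αβ T cells, ran in the opposite order, at 4.53, 6.07 and 156 CPM in mucosa and 11.6, 44.8 and 349 CPM in tumors. As a background, a Trdc UMI was found in 0% to 0.479% of epithelial barcodes, 0% to 1.51% of CD4 T barcodes and 0% to 0.157% of neutrophil barcodes per library. Median depths were 9046 to 24411 UMIs in epithelial, 1581 to 5217 in CD4 T and 1117 to 3349 in neutrophil barcodes.

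Each of the criteria removed a different share in the tissues. Of 4879 mucosal and 7354 tumor barcodes with at least 2 Cd3 UMIs, 1298 and 587 held Trdc. The request for Cd8a, Cd160 or Gzma removed 86 of those 1298 and 385 of those 587. The Il17a criterion removed 5 more in mucosa and 32 more in tumors. The class therefore covered 1197 of 1298 Trdc-bearing T cell barcodes of mucosa and 159 of 587 of those of tumors.

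Among γδ IELs, Cd160 was found in 74.9% of mucosal and 68.6% of tumor barcodes, Cd8a in 58.9% and 57.9%, and Gzma in 53.7% and 61.0%. Cd8b1, outside the rule, was found in 1.42% and 5.66%. After thinning every barcode to 1000 UMIs, Cd8b1 was found in 0.522% of mucosal γδ IELs (48 of 1197 too shallow) and 1.89% of tumor γδ IELs (0 too shallow). The same thinning left Cd8b1 in 62.7% and 47.5% of CD8αβ T cell barcodes, which were chosen for it. At that depth Cd160 was found in 51.1% of mucosal and 27.7% of tumor γδ IELs, Cd8a in 38.7% and 30.8%, and Gzma in 49.6% and 52.8%.

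γδ IELs were sparser in tumors than in adjacent mucosa, as a share of retained barcodes, of T cell barcodes and per epithelial barcode. The last did not hold in mouse A at a setting that thinned barcodes and left out shallow ones (given below). γδ IELs made up 7.17%, 2.95% and 5.57% of retained barcodes in mucosa 1, 2 and 3, and 0.0655% to 0.324% in the tumors (median 0.176%). The means were 5.23% ± 2.13 (SD, n = 3) and 0.176% ± 0.0823 (SD, n = 10), a 29.8-fold difference. The lowest mucosa lay above the highest tumor.

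**Figure D1:**
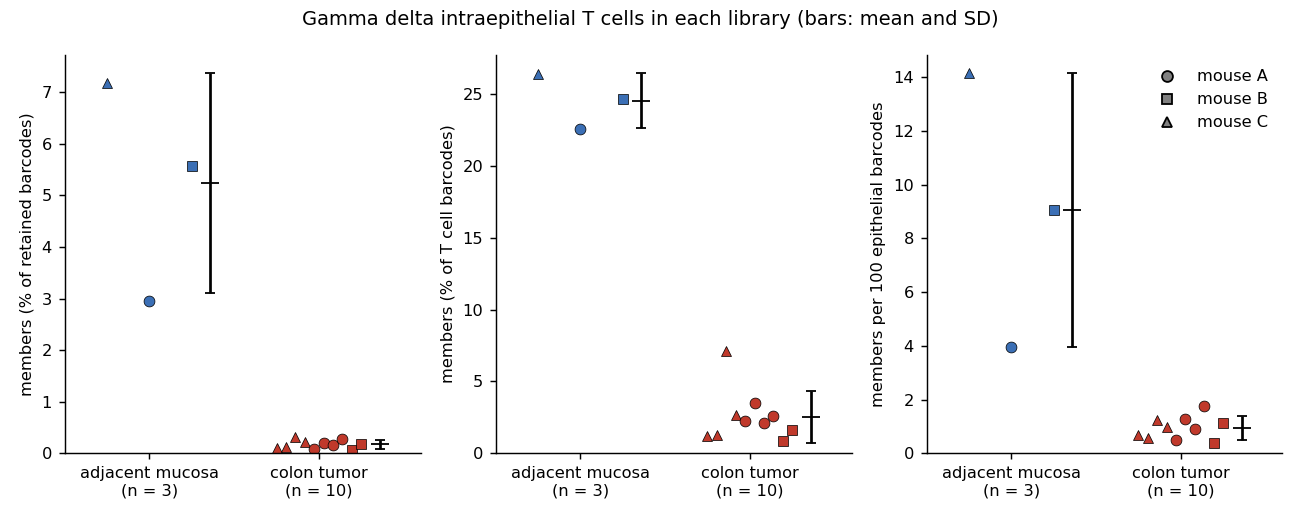
Share of γδ IELs in each library (y axes) by tissue (x axis), as a percentage of retained barcodes, as a percentage of T cell barcodes and per 100 epithelial barcodes. Points are libraries, symbols are mice, and bars are the mean and SD. In every panel the 3 mucosal libraries lie above all 10 tumors, and the spread among tumors is widest for T cells, where tumor 3 stands at 7.12%.

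The difference was also present among T cell barcodes alone. γδ IELs were 26.4%, 22.6% and 24.6% of the barcodes with at least 2 Cd3 UMIs in mucosa 1, 2 and 3. They were 0.830% to 7.12% of these in the tumors (median 2.18%). The means were 24.5% ± 1.91 and 2.53% ± 1.81, a 9.70-fold difference. That fold holds for the class as the rule drew it. All Trdc-bearing T cell barcodes were 1298 of 4879 in mucosa and 587 of 7354 in tumors. Part of the fold thus came from the request for Cd8a, Cd160 or Gzma, which removed 86 of the 1298 and 385 of the 587. Tumor 3 was the highest at 7.12% and the next tumor stood at 3.54%. Within mouse A the mucosa stood at 22.6% and its tumors at 2.12% to 3.54%, within mouse B at 24.6% against 0.830% and 1.64%, and within mouse C at 26.4% against 1.20% to 7.12%.

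Set against epithelial barcodes (at least 2 Epcam UMIs), γδ IELs numbered 14.1, 3.97 and 9.06 per 100 in mucosa 1, 2 and 3. In the tumors they numbered 0.373 to 1.76 per 100 (median 0.955). The means were 9.06 ± 5.09 and 0.944 ± 0.429, a 9.60-fold difference, and again the groups did not overlap.

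Averaged over mice, tumors minus mucosa came to -5.06 percentage points of retained barcodes, -22.2 points of T cell barcodes and -8.15 per 100 epithelial barcodes. The mucosa label was permuted among the libraries of each mouse (75 assignments, exact and two-sided), and each of the 3 gave an exact p = 0.0133 and an adjusted p of 0.0133. This is the smallest value the design allows. With mixed barcodes left out of both the γδ IELs and the T cell barcodes, an alternative added after seeing the data, the T cell shares were 24.1% ± 2.26 in mucosa and 2.23% ± 2.34 in tumors, where tumors 5 and 6 kept 3 and 10 T cell barcodes. With at least 2 Trdc UMIs required they were 15.5% ± 5.69 and 1.89% ± 1.62. With all barcodes thinned to 2000 UMIs the shares per 100 epithelial barcodes overlapped (exact p = 0.04). That setting left out barcodes under 2000 UMIs and applied the rule after thinning. In mucosa 2 it took γδ IELs from 315 to 54, T cell barcodes from 1396 to 198 and epithelial barcodes from 7935 to 7442. In mouse A the mucosa then stood at 0.726 per 100 and its tumors at 0.250 to 1.63 with a mean of 0.853, and 2 of 4 tumors lay above the mucosa, while in mice B and C no tumor did. Of T cell barcodes at that setting, γδ IELs were 27.3% in the mucosa of mouse A and 1.28% to 2.61% in its tumors.

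Among UMIs of γ variable segments in the γδ IELs, Trgv2 held the most. The libraries were made with a 3′ kit, and whether these UMIs follow the γ chains in use was not tested. Of constant chain UMIs in mucosa, Tcrg-C1 held 55.4% and Tcrg-C2 27.1% (given below). Trgv2 UMIs were also found in 26.5% of mucosal CD8αβ T cells. Of 1294 UMIs of γ variable segments in mucosa, Trgv2 held 72.8% (65.5% to 74.4% per library), Tcrg-V7 17.6%, Tcrg-V1 4.87%, Tcrg-V4 3.32% and Tcrg-V6 0.309%. Of 160 such UMIs in tumors, Trgv2 held 81.9% (61.5% to 100% per library), Tcrg-V7 6.88%, Tcrg-V1 5.00%, Tcrg-V4 3.75% and Tcrg-V6 1.88%. The order was thus the same for the leading segments in both tissues. Tcrg-V7 (chr13:19178024-19178492) is the segment that intestinal IELs are known for. Its UMIs fell on 14.6% of mucosal and 6.29% of tumor γδ IELs. Its level was 77.0, 36.2 and 29.7 CPM in mucosa 1, 2 and 3 and 7.04 to 26.4 CPM in these 8 tumors, with 0 CPM in tumors 5 and 9. Tcrg-V7 had 11 UMIs in the tumors that entered the test and did not pass the filter on low counts, so that no test is given.

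**Figure D2:**
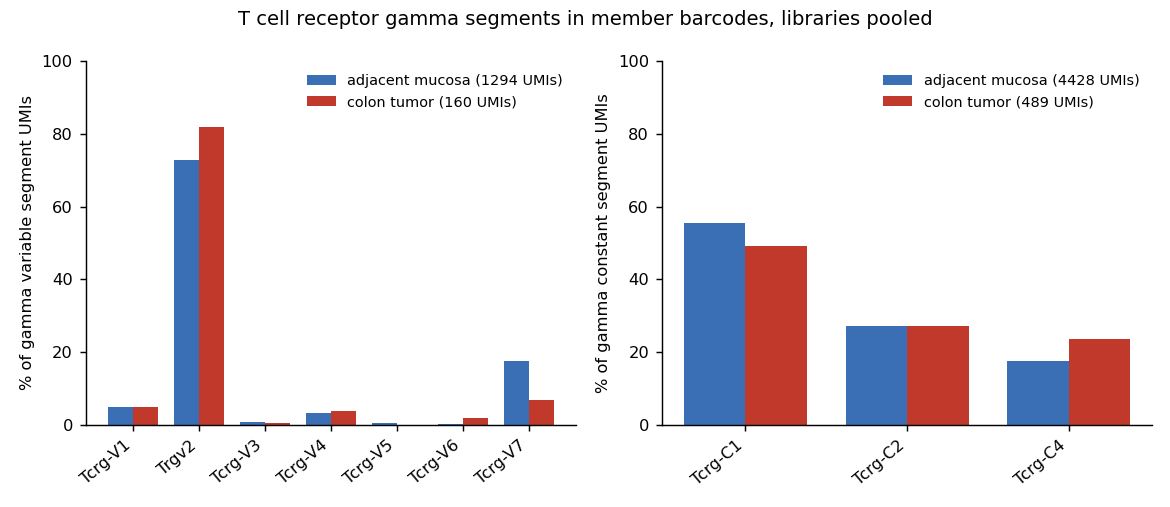
Percentage of γ variable segment UMIs and of γ constant chain UMIs (y axes) by segment (x axis) in mucosal and tumor γδ IELs, pooled over libraries. Trgv2 leads the variable segments in both tissues, at 72.8% of 1294 UMIs in mucosa and 81.9% of 160 UMIs in tumors.

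The constant chains were led by Tcrg-C1 in both tissues when libraries were pooled. Tcrg-C1 (chr13:19214103-19217024) held 55.4% of 4428 constant chain UMIs in mucosa and 49.1% of 489 in tumors, Tcrg-C2 27.1% and 27.2%, and Tcrg-C4 (chr13:19344558-19352756) 17.5% and 23.7%. Per library Tcrg-C1 held 53.8% to 59.1% in mucosa and 16.7% to 56.5% in tumors, and Tcrg-C4 16.0% to 18.0% and 12.5% to 66.7%. The range was thus wider in tumors, but tumor 9 entered it with 6 γδ IELs and 4 Tcrg-C4 UMIs. Whether the range in tumors exceeds the counting error of 489 UMIs was not tested. Reads that match several of these genes were not examined, so that the split between them is uncertain. Trgv2 and Tcrg-C2 transcripts were also present in CD8αβ T cells of mucosa, in 26.5% and 32.1% of barcodes, against 40.8% and 52.1% of γδ IELs. Tcrg-C1 separated the classes further, with UMIs in 70.3% of mucosal γδ IELs and 10.7% of mucosal CD8αβ T cells.

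Transcripts of the αβ receptor were detected in the γδ IELs. Trbc2, a β constant chain, had UMIs in 74.7% of mucosal and 83.6% of tumor γδ IELs, and Trac, the α constant chain, in 42.6% and 47.2%. Among CD8αβ T cells the corresponding shares were 91.4% and 93.0% for Trbc2 and 61.7% and 74.2% for Trac. After the thinning used above for Cd8b1, Trbc2 was found in 48.9% of mucosal and 48.4% of tumor γδ IELs, and Trac in 23.2% and 13.2%. The higher shares in tumor γδ IELs thus did not hold after thinning. The thinned shares of CD8αβ T cells were 73.5% and 63.8% for Trbc2 and 32.1% and 31.6% for Trac. The mean level of Trbc2 was 632 CPM over the 3 mucosal libraries and 754 CPM over the 8 tumors, and 55.7 and 61.1 CPM in other barcodes.

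Within the γδ IELs, tumors were then compared with mucosa across genes, on UMIs summed per library (edgeR's quasi-likelihood test with Benjamini-Hochberg adjustment). The 3 mucosal libraries and the 8 tumors with at least 10 γδ IELs entered, while tumors 5 and 9 with 9 and 6 did not. Of 1877 genes tested, 172 (9.16%) had an adjusted p under 0.05, of which 118 (6.29%) were higher and 54 (2.88%) lower in tumors. The 2 tissues did not overlap in 127 genes (6.77%). Since other cells' RNA was present, each gene was also set against all other retained barcodes of the same libraries. Of the called genes, 60 (3.2% of those tested) stood at least 2 times above the other barcodes in their higher tissue, 56 of them higher (2.98%) and 4 lower (0.213%) in tumors. The balance of directions depended on the setting. Without the filter on low counts 490 genes were called higher and 751 lower, and with mucosa 1 left out 136 and 142. A gene could pass that filter through its level in 1 tissue alone, which bears on every count by list below.

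Among called genes that stood at least 2 times above other barcodes and did not overlap between the tissues, Nr4a3 had the highest fold, while neutrophil genes given below had higher folds outside that limit. Nr4a3, an orphan nuclear receptor induced by T cell receptor signals, stood at 5.21, 9.34 and 0.465 CPM in mucosa 1, 2 and 3 and at 37.5 to 300 CPM in tumors (median 119). Nr4a2, its paralog, stood at 56.1, 40.9 and 20.9 CPM in mucosa and 187 to 836 CPM in tumors (median 356). The log2 fold changes were 5.03 ± 0.74 (SE) for Nr4a3 (adjusted p = 0.00105) and 3.51 ± 0.58 for Nr4a2 (adjusted p = 0.00223). Neither gene overlapped between the tissues, which was a condition for naming them. The other barcodes of these libraries also rose, from 0.346 to 39.2 CPM for Nr4a3 and from 5.01 to 68.0 CPM for Nr4a2.

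Crem, a cAMP-responsive transcription factor gene, stood at 28.4, 15.2 and 8.36 CPM in mucosa and 116 to 577 CPM in tumors (median 341), a log2 fold change of 4.28 ± 0.56 (adjusted p = 0.000469). Fosl2, an AP-1 subunit, stood at 15.0, 23.4 and 17.7 CPM in mucosa and 116 to 503 CPM in tumors (median 250), a log2 fold change of 3.91 ± 0.49 (adjusted p = 0.000465). Tnfaip3, the NF-κB inhibitor A20, stood at 60.8, 23.4 and 29.3 CPM in mucosa and 116 to 603 CPM in tumors (median 321), with an adjusted p of 0.00125. In each of the 3 genes the lowest tumor lay above the highest mucosa, again a condition for naming them. Dusp5, a phosphatase of nuclear ERK, rose from 42.2, 44.4 and 10.7 CPM to 62.5 to 401 CPM (log2 fold change 2.90 ± 0.55, adjusted p = 0.00457). The other barcodes rose as well, from 6.87 to 81.6 CPM for Crem and from 21.4 to 117 CPM for Fosl2. For Tnfaip3 they went from 8.48 to 76.9 CPM and for Dusp5 from 6.15 to 81.9 CPM.

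Other genes named by their fold had varied roles. Vps37b, a subunit of the ESCRT-I sorting complex, stood at 74.1, 61.9 and 54.8 CPM in mucosa and 383 to 2014 CPM in tumors (median 978), a log2 fold change of 3.97 ± 0.54 (adjusted p = 0.000505). Irs2, an adaptor of insulin and cytokine receptors, rose from 17.4, 14.0 and 18.1 CPM to 44.0 to 448 CPM (median 224, adjusted p = 0.000469). Satb1, a chromatin organizer of T cells, rose from 11.6 to 16.8 CPM to 29.4 to 238 CPM (adjusted p = 0.00223), and P2ry10, a lysophospholipid receptor of lymphocytes, from 17.5 to 37.0 CPM to 116 to 465 CPM (adjusted p = 0.000477). Vps37b, Irs2, Satb1 and P2ry10 separated the tissues with no overlap, as the naming rule asked. Other barcodes rose from 15.2 to 87.5 CPM for Vps37b and from 10.2 to 37.9 CPM for Irs2. For Satb1 they went from 3.13 to 24.8 CPM and for P2ry10 from 2.74 to 21.5 CPM.

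**Figure D3:**
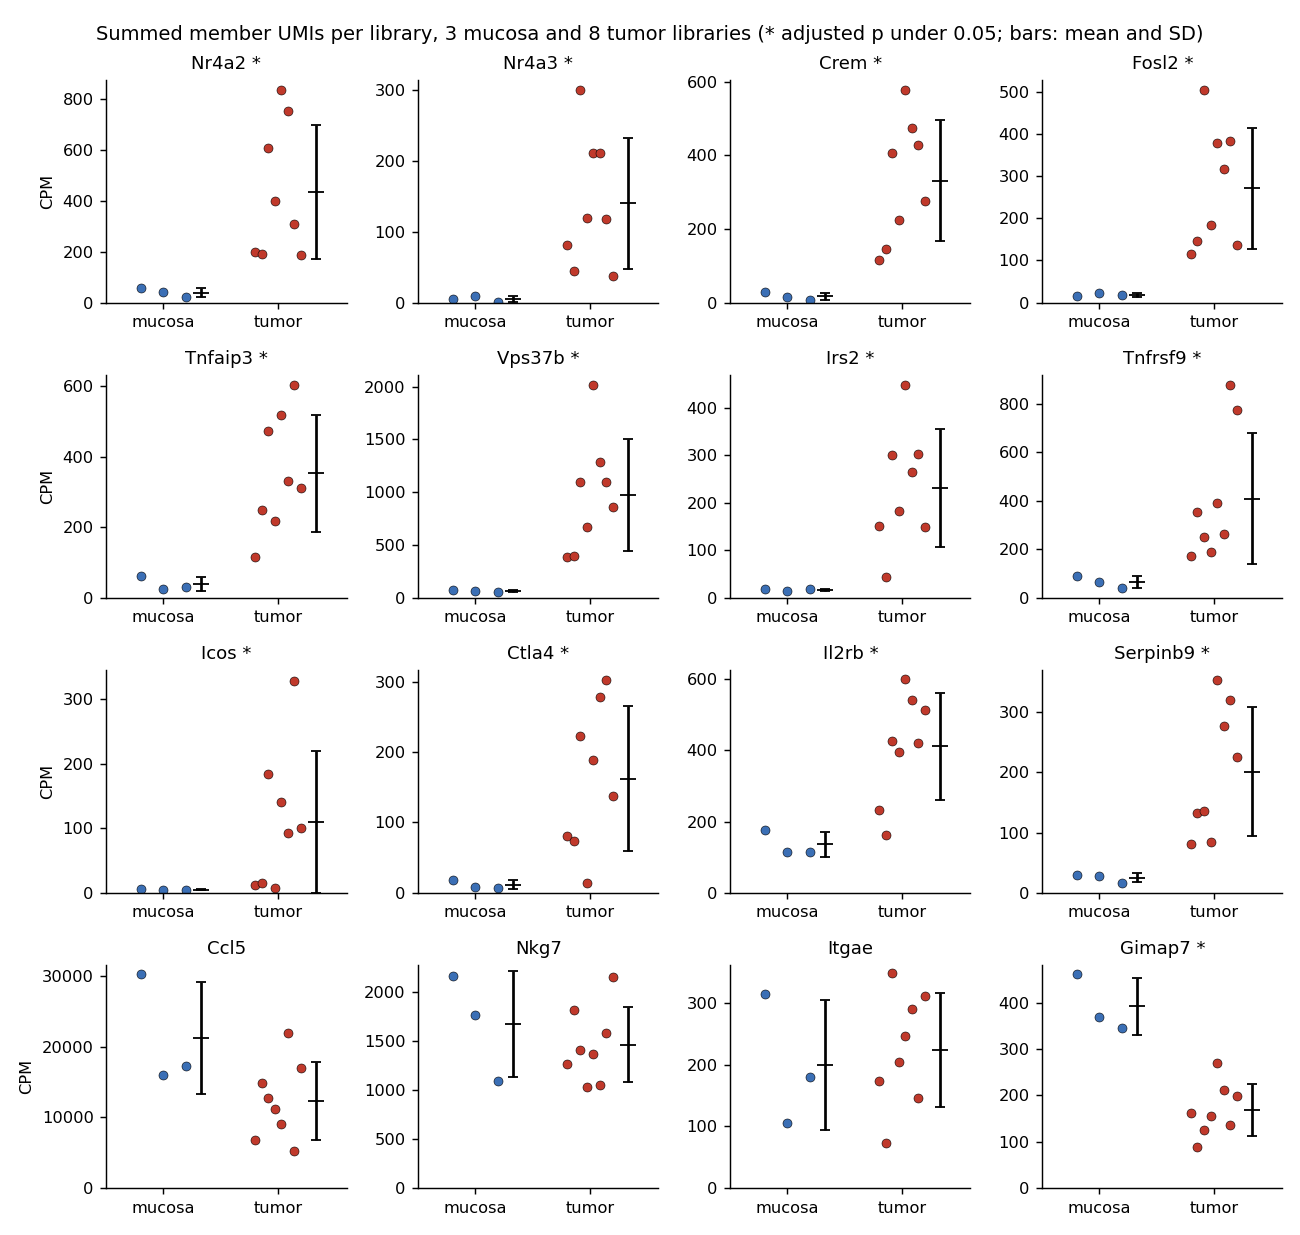
Level of 16 genes in γδ IELs (CPM, y axes) for each library, mucosa against tumors. Points are libraries with at least 10 γδ IELs and an asterisk marks an adjusted p under 0.05. Nr4a2, Nr4a3, Crem, Fosl2, Tnfaip3, Vps37b and Irs2, named on condition of no overlap, lie higher in every tumor than in any mucosa. Ccl5, Nkg7 and Itgae overlap.

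The list of immediate early and stress genes held many calls. Of its 26 members past the filter on low counts, 15 rose in tumors (57.7%, against 6.29% of all genes tested) and 11 were not called. The median log2 fold change was 1.22, and 6 other members did not pass. Nr4a2, Nr4a3, Fosl2 and Dusp5, called members given above, stood low in mucosa and passed through their level in tumors. The share is thus shaped by the filter. Junb, an AP-1 subunit, stood at 766, 508 and 446 CPM in mucosa and at 1010 to 3300 CPM in tumors (adjusted p = 0.00341). Dnaja1 and Hsp90aa1, heat shock chaperones, rose from 315 to 790 CPM and from 370 to 706 CPM on average (adjusted p = 0.00504 and 0.0419). Btg2 and Nfkbia also rose. With tumors summed per mouse and the mouse as a block, Hsp90aa1 and Btg2 had adjusted p of 0.104 and 0.128, and with that block alone Btg2 had 0.0562. In the other barcodes of these libraries the same list went from 5481 to 6776 CPM summed in mucosa to 10201 to 14637 CPM in tumors, while in γδ IELs it went from 6656 to 7779 CPM to 10154 to 16106 CPM in the 8 tumors that entered the test. Of the 15 called members, 6 stood at least 2 times above the other tumor barcodes.

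Of 6 activation and inhibitory receptor genes past the filter, 4 were higher in tumors (against 6.29% of all genes tested), with a median log2 fold change of 1.93. The other 14 of the 20 genes listed did not pass. Icos and Ctla4 stood low in mucosa and passed through their level in tumors, so that this share is shaped by the filter. Tnfrsf9, the costimulatory receptor 4-1BB, stood at 90.3, 66.6 and 41.8 CPM in mucosa and 174 to 878 CPM in tumors (median 308), a log2 fold change of 2.65 ± 0.53 (adjusted p = 0.00559). Icos, an inducible costimulator, stood at 5.79, 4.67 and 4.18 CPM in mucosa and 7.04 to 329 CPM in tumors (median 96.2), a log2 fold change of 4.49 ± 0.93 (adjusted p = 0.00803). Both receptors separated the tissues, which for Icos was a condition of naming by fold. In tumors 1, 2 and 4 Icos stood at 11.6, 14.7 and 7.04 CPM, the level of 1 UMI in each. Its separation there thus rests on single UMIs. In the other barcodes Icos went from 1.73 CPM in mucosa to 19.5 CPM in tumors. With tumors summed per mouse and the mouse as a block the adjusted p of Tnfrsf9 was 0.0564.

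Ctla4, an inhibitory receptor, stood at 18.5, 8.18 and 6.97 CPM in mucosa and 14.1 to 302 CPM in tumors (median 163, adjusted p = 0.00282), where the lowest tumor overlapped with mucosa 1. Tnfrsf18, the receptor GITR, rose from 85.6, 53.7 and 51.1 CPM to 127 to 185 CPM, a log2 fold change of 1.21 ± 0.24 (adjusted p = 0.00559, and 0.142 with tumors summed per mouse and the mouse as a block). Cd44, which memory T cells carry, stood at 60.5 CPM in mucosa and 96.5 CPM in tumors on average (adjusted p = 0.303).

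Of 12 genes of cytokine receptors and their signaling past the filter, 3 were higher (against 6.29% of all genes tested), with a median log2 fold change of 0.82. Il2rb, the β chain shared by the IL-15 and IL-2 receptors, stood at 177, 116 and 115 CPM in mucosa and 161 to 601 CPM in tumors (median 423), a log2 fold change of 1.62 ± 0.36 (adjusted p = 0.0118). Ifngr1, an interferon γ receptor chain, rose from 267, 235 and 185 CPM to 415 to 978 CPM (adjusted p = 0.00545), and Stat3, a transcription factor of cytokine signaling, from 77.1 to 93.7 CPM to 176 to 507 CPM (adjusted p = 0.00265). Mcl1 and Jak1 stood at 223 and 206 CPM in mucosa and 384 and 346 CPM in tumors (adjusted p = 0.114 and 0.225). With tumors summed per mouse and the mouse as a block, Il2rb and Ifngr1 each had an adjusted p of 0.0603.

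The cytotoxic genes that rose were protease inhibitors. Serpinb9, which inhibits granzyme B inside the killer cell, stood at 30.1, 28.0 and 16.7 CPM in mucosa and 81.2 to 353 CPM in tumors (median 180), a log2 fold change of 3.03 ± 0.48 (adjusted p = 0.0017). Serpinb6b, a serpin that inhibits granzyme A, stood at 51.5, 56.1 and 29.7 CPM in mucosa and 103 to 317 CPM in tumors, a log2 fold change of 2.31 ± 0.31 (adjusted p = 0.000477). These were 2 of 9 cytotoxic genes past the filter (against 6.29% of all genes tested), and the list's median log2 fold change was 0.52. Both stood low in mucosa and passed through their level in tumors, so that this share too is shaped by the filter. In the other barcodes Serpinb9 went from 4.45 CPM in mucosa to 17.5 CPM in tumors.

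The granzymes and granule proteins themselves varied among tumors as much as between tissues. Gzmb stood at 2261, 901 and 1059 CPM in mucosa and 471 to 7821 CPM in tumors (adjusted p = 0.677). Nkg7, a granule membrane protein, stood at 2167, 1770 and 1091 CPM in mucosa and 1035 to 2162 CPM in tumors (adjusted p = 0.712). Gzma, a rule gene, was highest in tumor 10 at 32622 CPM, with the next tumor at 12646 CPM. UMIs of both Gzma and Gzmb were found in 41.9% of mucosal and 46.5% of tumor γδ IELs.

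Ccl5, Cd7, Klrd1 and Itgae were not called between tissues. Ccl5, a chemokine, stood at 30332, 16003 and 17283 CPM in mucosa and 5238 to 21950 CPM in tumors (log2 fold change -0.74 ± 0.35, adjusted p = 0.211). Cd7, a surface protein of innate-like lymphocytes, stood at 2202, 1598 and 1269 CPM in mucosa and 847 to 1873 CPM in tumors (adjusted p = 0.361). Klrd1, the NK receptor CD94, stood at 663 CPM in mucosa and 984 CPM in tumors on average (adjusted p = 0.171), and Itgae had an adjusted p of 0.78. These values overlapped between the tissues.

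By edgeR's quasi-likelihood test, 0 of 4 γδ receptor genes were called (2 at an unadjusted p under 0.05, 1 by DESeq2), with a median log2 fold change of -0.46. Tcrg-C1 stood at 729, 466 and 368 CPM in mucosa and 176 to 459 CPM in tumors (adjusted p = 0.105). Of 9 genes of the receptor complex and its signaling, 0 were called (1 unadjusted, 1 by DESeq2), and of 3 αβ receptor genes 0 (0 and 0). Of 10 transcription factors of resident T cells 0 were called (3 unadjusted, 2 by DESeq2). Rora was nearest at 50.3 CPM in mucosa and 189 CPM in tumors (adjusted p = 0.0526).

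Of 5 cytokine and chemokine genes 0 were called (2 unadjusted, 0 by DESeq2), and Ccl4 stood at 590 CPM in mucosa and 221 CPM in tumors (adjusted p = 0.144). Of 11 interferon response genes 0 were called (1 and 1), with a median log2 fold change of 0.02. Psmb9, an immunoproteasome subunit, was nearest at 413 and 243 CPM (adjusted p = 0.0728). Cxcr6, the migration receptor past the filter, stood at 114 and 105 CPM.

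Of 5 cell cycle genes past the filter 0 were called (4 at an unadjusted p under 0.05, 1 by DESeq2), with a median log2 fold change of -0.68. Stmn1, which destabilizes microtubules in dividing cells, stood at 234, 474 and 406 CPM in mucosa and 9.68 to 313 CPM in tumors (adjusted p = 0.0541). Mki67 and Top2a did not pass the filter. A UMI of either was found in 16.7% of mucosal and 13.8% of tumor γδ IELs.

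Of 7 NK receptor genes 1 was higher (against 6.29% of all genes tested), Lilrb4a, which stood at 25.4 CPM in mucosa and 114 CPM in tumors, below the 225 CPM of other tumor barcodes. Of 14 genes of residence and adhesion 1 was higher and 1 lower (against 6.29% and 2.88% of all genes tested). Rgs2, a regulator of G protein signaling, rose from 88.5, 31.5 and 32.1 CPM to 162 to 412 CPM (adjusted p = 0.00223). Cd38, an NAD-consuming enzyme, fell from 127, 134 and 136 CPM to 14.1 to 64.0 CPM (adjusted p = 0.00545), and the other barcodes went from 139 to 62.5 CPM as well. Its adjusted p was 0.124 with tumors summed per mouse and the mouse as a block. Kit, which innate lymphoid and mast cells also carry, stood at 73.9 and 129 CPM (adjusted p = 0.27). Of 10 glycolysis and hypoxia genes 1 was higher (against 6.29%). Hif1a rose from 36.2 to 47.9 CPM to 84.5 to 420 CPM (adjusted p = 0.0118), with a mean of 160 CPM in tumors against 202 CPM in other tumor barcodes, and with tumor 8 at 420 CPM above the latter.

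**Figure D4:**
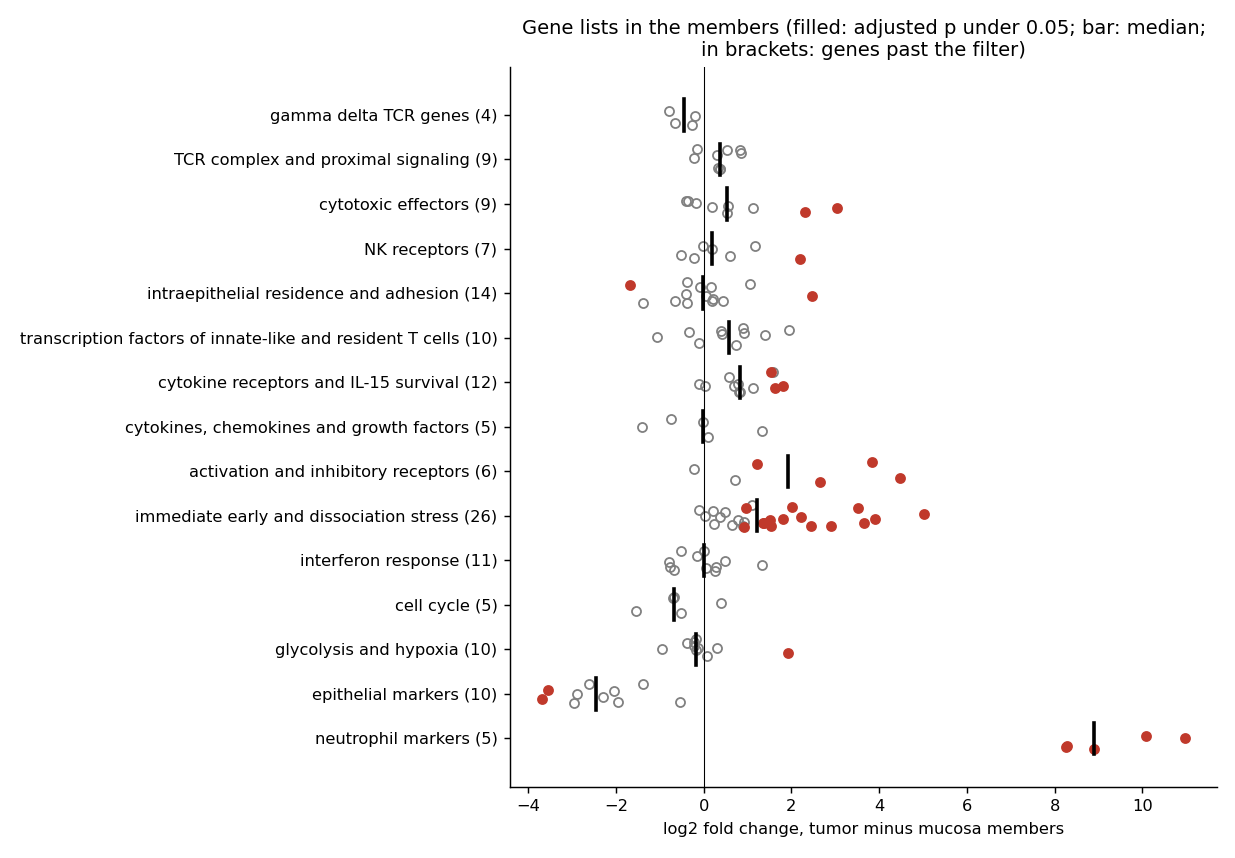
Log2 fold change of tumors over mucosa in γδ IELs (x axis) for the genes of each list with at least 4 genes past the filter (y axis). Points are genes, filled where the adjusted p is under 0.05, and bars are list medians, which run from -2.46 for epithelial markers to 8.90 for neutrophil markers.

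The lists of other cell types moved with the tissue too. All 5 neutrophil genes past the filter were called higher (against 6.29% of all genes tested), and the other 7 of the 12 did not pass. The list summed to at most 18.7 CPM in mucosal γδ IELs. The 5 genes thus passed through tumors, and their count is shaped by the filter. With the mouse as a block S100a8, Retnlg and Cxcl2 lost the call, at adjusted p of 0.0773, 0.0577 and 0.0993, and with tumors also summed per mouse Cxcl2 had 0.0572. S100a9 stood at 0.579, 0 and 0.929 CPM in mucosal γδ IELs and at 29.4 to 5567 CPM in tumor γδ IELs, against 59.5 and 15274 CPM in the other barcodes. Both B and plasma cell genes were higher, with Igkc at 77.1 CPM in mucosa and 596 CPM in tumors against 36690 CPM in other tumor barcodes. Of 10 epithelial genes 2 were lower (against 2.88% of all genes tested), Muc2 at 1279 and 102 CPM and Phgr1 at 614 and 60.6 CPM, with adjusted p of 0.0757 and 0.170 when tumors were summed per mouse and the mouse was a block (0.0663 for Phgr1 with the block alone). None of these stood at or above 2 times the other barcodes, and 0 of 2 monocyte genes were called (1 unadjusted, 0 by DESeq2).

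Among the 1877 genes past the filter, few that mark γδ IELs over other barcodes were lower in tumors. The 4 that met the naming rule were Abi3, Cdkn2d, Gimap7 and Rinl. Gimap7, a GTPase of lymphocytes, stood at 464, 369 and 346 CPM in mucosa and 88.1 to 271 CPM in tumors (median 159), a log2 fold change of -1.20 ± 0.25 (adjusted p = 0.00843). Abi3, an actin regulator, stood at 241, 126 and 143 CPM in mucosa and 13.2 to 112 CPM in tumors (adjusted p = 0.0109). Cdkn2d, a CDK4 and CDK6 inhibitor, stood at 138, 120 and 106 CPM against 11.6 to 82.3 CPM (adjusted p = 0.0399), and Rinl at 256, 181 and 178 CPM against 54.8 to 141 CPM (adjusted p = 0.0186). None of the 4 overlapped between the tissues, which the naming rule asked for. With tumors summed per mouse and the mouse as a block none of the 4 was called, at adjusted p of 0.0784 for Abi3, 0.0976 for Cdkn2d, 0.0603 for Gimap7 and 0.172 for Rinl, and with the mouse as a block without that summing Cdkn2d stood at 0.0994.

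The number of genes called rested on few libraries. Without mucosa 1, 2 or 3 the count of 172 became 278, 63 or 48, without tumor 1 it became 272, without tumor 3 it became 111, and with the mouse as a block it was 99. With mixed barcodes left out tumor 3 alone remained on the tumor side, so that the 18 genes called there say nothing about stability among tumors. Crem, Ctla4, Fosl2, Irs2, Nr4a2, Nr4a3, P2ry10, Satb1 and Vps37b were called under all 23 alternatives other than that one, as were Junb, Rgs2, Serpinb6b, Serpinb9, Stat3 and Tnfaip3, and Lilrb4a under all 18 that gave it a value. Cdkn2d was called under 11 of 21, Hsp90aa1 under 11 of 23, Rinl and Nfkbia each under 16 of 23 and Tnfrsf18 under 17 of 23.

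γδ IELs were next set against CD8αβ T cells of the same libraries, which carried at least 2 Cd3 UMIs, at least 1 Cd8b1 UMI and 0 UMIs of Trdc, Cd4 and Cd79a. There were 1605 such barcodes, 514 in mucosa and 1091 in tumors. A UMI of Cd8a, Cd160 or Gzma and the absence of Il17a and Il23r were asked of γδ IELs only. A Cd160 UMI was found in 74.9% of mucosal and 68.6% of tumor γδ IELs, against 58.0% and 26.2% of CD8αβ T cells. The part of this unlike choice in the differences below was not tested. The library was a block in edgeR's quasi-likelihood test, and genes of either rule were not tested. Of 4831 genes, 356 (7.37%) were called, 132 (2.73%) higher and 224 (4.64%) lower in γδ IELs. The 16 genes named here by rule were chosen among those where all 11 libraries went the same way.

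γδ IELs held higher levels of Ikzf2, Kit and Cd7. Ikzf2, the transcription factor Helios, stood at 176 to 765 CPM in γδ IELs and 20.0 to 95.02 CPM in CD8αβ T cells over the 11 libraries, with means of 422 and 57.5 CPM and a log2 difference of 2.68 ± 0.16 (adjusted p = 8.13e-10). Kit, the stem cell factor receptor, had means of 114 and 11.9 CPM (2.94 ± 0.26 on the log2 scale), and Cd7 of 1388 and 287 CPM (2.54 ± 0.27). Cited4, Ddc, Cd200r4 and Lat2 were also higher, at 69.2, 68.0, 87.1 and 120 CPM against 9.78, 8.91, 13.3 and 21.6 CPM. The γ chain Tcrg-C1, at 359 and 30.8 CPM, follows the choice of Trdc and is a description.

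The genes named by fold as lower in γδ IELs included Cd5, Cd6 and Cd28. Cd5, which dampens T cell receptor signals, had means of 5.74 and 55.1 CPM (log2 difference -4.88 ± 0.45, adjusted p = 3.86e-07), and Cd6, its homolog, of 5.86 and 87.3 CPM. Cd28, the main costimulatory receptor, stood at 0 to 48.4 CPM in γδ IELs and 28.2 to 231 CPM in CD8αβ T cells (log2 difference -3.46 ± 0.28, adjusted p = 5.20e-08). Themis, a regulator of thymic selection, had means of 11.04 and 56.6 CPM, Ms4a4b 286 and 971 CPM, Lef1 15.6 and 85.8 CPM, Gramd3 48.8 and 172 CPM, and BE692007 4.92 and 64.0 CPM. Of 6 αβ receptor and coreceptor genes past the filter 5 were lower (against 4.64% of all genes tested), Trac and Trbc2 among them, and 1 was not called. The classes were chosen by Trdc and Cd8b1, so that the receptor chains follow that choice and their calls are a description.

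Receptors and adaptors of NK cells were higher in γδ IELs for 4 of 9 members past the filter (against 2.73% of all genes tested). The classes were chosen unlike, as given above, and the part of that choice in these calls was not tested. Klrd1 had means of 897 and 340 CPM (log2 difference 1.26 ± 0.14), Klre1 110 and 25.2 CPM, Klrk1, the receptor NKG2D, 139 and 53.5 CPM, and Cd244a 74.5 and 17.1 CPM. The signaling adaptor Fcer1g, which can pair with the T cell receptor, had means of 1308 and 273 CPM (2.64 ± 0.37, adjusted p = 8.09e-05). Lat, the adaptor of conventional receptor signaling, was lower at 141 and 366 CPM (-1.55 ± 0.14). Tyrobp and Txk were higher, so that 3 of 13 signaling genes were higher and 1 was lower (against 2.73% and 4.64% of all genes tested).

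Of 19 residence genes 8 were higher in γδ IELs (against 2.73% of all genes tested), 2 were lower and 9 were not called. Those higher included Itgae at 218 and 84.6 CPM (adjusted p = 0.00852), Itga1, the integrin CD49a, at 156 and 58.8 CPM (adjusted p = 0.000597), Cd96 at 115 and 53.4 CPM and Rgs1 at 728 and 280 CPM. Cd69 and Itgb1 were lower. Of 12 migration receptors 7 were lower (against 4.64% of all genes tested), among them S1pr1, the receptor for egress from tissue, at 7.55 and 47.0 CPM (-2.77 ± 0.32), and Klf2, which drives it, at 37.5 and 137 CPM.

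The counts of the other lists are set against 2.73% higher and 4.64% lower among all genes tested. Of 19 transcription factors 3 were higher and 2 lower, of 18 genes of cytokine receptors and their signaling 3 were higher and 2 lower, of 7 cytokines and chemokines 2 were higher, and of 13 cytotoxic genes 1 was lower. Ahr, the aryl hydrocarbon receptor, was higher at 50.5 and 16.2 CPM (adjusted p = 0.00195), as was Tox at 57.5 and 18.8 CPM, while Tcf7 was lower at 70.4 and 125 CPM. Il2rb was higher at 336 and 166 CPM and Il7r, the IL-7 receptor, lower at 158 and 335 CPM. Xcl1 and Ccl5 were higher, at 389 and 151 CPM and at 14768 and 7643 CPM. Gzmk was lower at 17.5 and 77.1 CPM, and Gzmb had means of 1838 and 799 CPM (adjusted p = 0.3). Of 14 activation and inhibitory receptors 4 were higher and 1 was lower. Tnfrsf9 stood at 316 and 86.2 CPM and Lag3 at 80.9 and 32.1 CPM, and Tnfrsf18 was lower at 123 and 171 CPM.

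Of 18 interferon response genes 3 were lower (against 4.64% of all genes tested), with Ifi27l2a at 64.0 and 342 CPM. RNA of other cells differed here as well, since the macrophage gene Apoe stood at 64.2 CPM in γδ IELs and 630 CPM in CD8αβ T cells.

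All 16 named genes kept their call under every alternative run, 299 values in all. The count of 356 was 161 with at least 20 barcodes per library. It was 712 with γδ IELs and CD8αβ T cells of over 10000 UMIs left out.

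Whether the tumor difference of γδ IELs differed from that of CD8αβ T cells was tested as an interaction. Of 7411 genes, 23 (0.31%) were called, and 381 (5.14%) had an unadjusted p under 0.05. Of 24 genes described above as different in tumors by fold or list, Crem and Tnfrsf9 among them, 0 were called by edgeR and 1 had an unadjusted p under 0.05. Crem, for example, stood at 10.4 CPM in mucosal and 166 CPM in tumor CD8αβ T cells, and Tnfrsf9 at 9.07 and 115 CPM (adjusted p of the difference 0.994). Serpinb6b was nearest at 53.3 and 119 CPM (log2 difference 0.91 ± 0.36, unadjusted p = 0.0201, adjusted p = 0.806).

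The tumor difference of Cd7 and Tcrg-C4 was smaller in γδ IELs than in CD8αβ T cells. Cd7 stood at 1690 and 1276 CPM in mucosal and tumor γδ IELs and at 709 and 129 CPM in mucosal and tumor CD8αβ T cells (log2 difference 1.84 ± 0.37, adjusted p = 0.04). Tcrg-C4 stood at 161 and 141 CPM in γδ IELs and 85.1 and 14.2 CPM in CD8αβ T cells (2.17 ± 0.41, adjusted p = 0.0237). The classes were chosen by the presence and absence of Trdc, so that this γ chain follows that choice and its call is a description. In tumors 5 and 9, which were not in the test, Cd7 stood at 307 and 295 CPM in γδ IELs.

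Of 18 cell cycle genes past the filter, 5 were called in the interaction (against 0.31% of all genes tested), Mki67, Birc5, Rrm2, Cdk1 and Ube2c. All 5 had a lower tumor difference in γδ IELs than in CD8αβ T cells, and the list's median log2 difference was -1.76. Mki67 stood at 75.2, 120 and 99.0 CPM in γδ IELs of mucosa 1, 2 and 3 and at 0 to 29.0 CPM in the 8 tumors, against 68.5 and 71.7 CPM on average in mucosal and tumor CD8αβ T cells (log2 difference -4.13 ± 0.60, adjusted p = 0.00167). Pclaf, a partner of PCNA in replication, stood at 129 and 6.00 CPM in γδ IELs and 95.9 and 96.9 CPM in CD8αβ T cells (adjusted p = 0.000618). The histone genes Hist1h1b, Hist1h2ae and Hist1h2ap and the kinetochore gene Cenpf were called in the same direction.

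**Figure D5:**
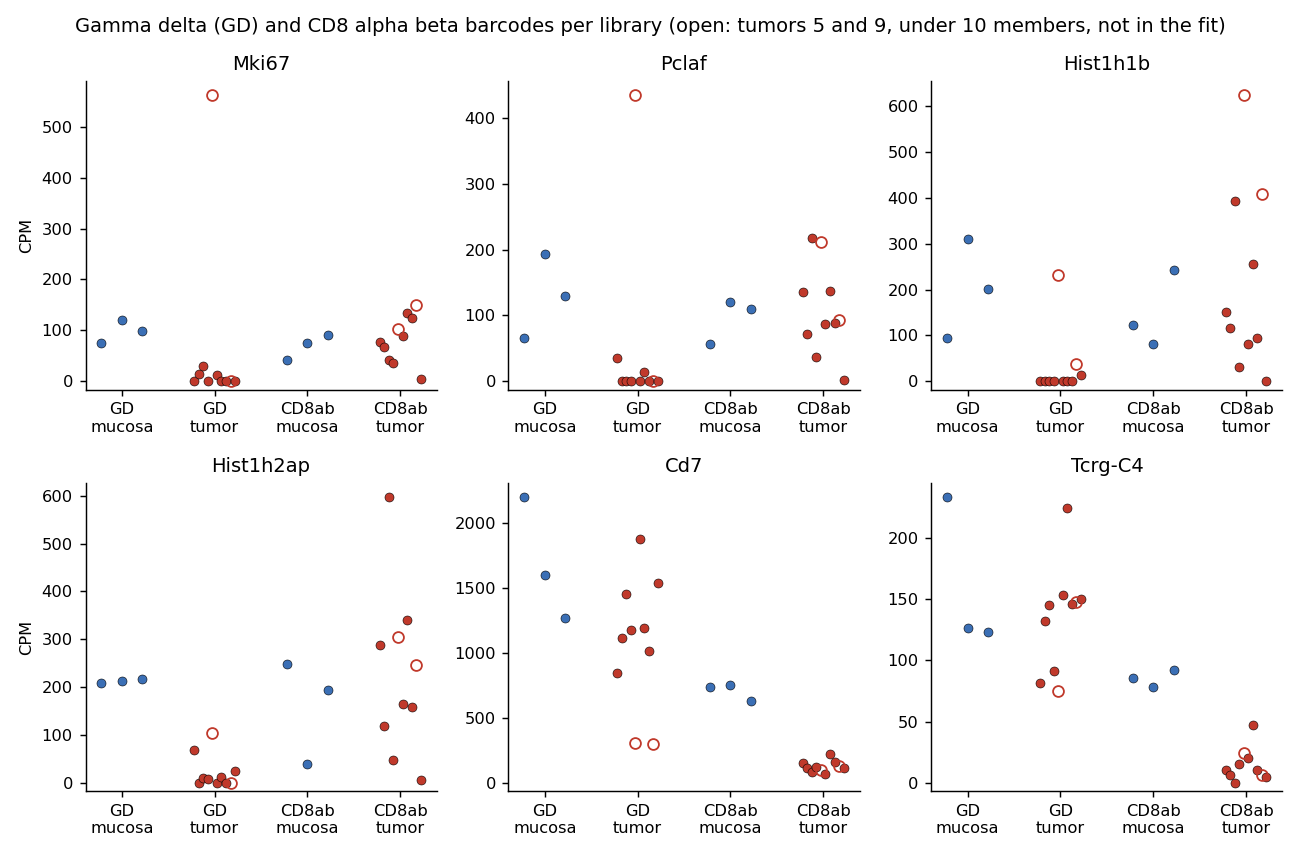
Level of Mki67, Pclaf, Hist1h1b, Hist1h2ap, Cd7 and Tcrg-C4 (CPM, y axes) in γδ IELs and CD8αβ T cells of mucosa and tumors (x axis). Points are libraries, open for tumors 5 and 9, which had under 10 γδ IELs and were not in the test. Mki67 is at or under 29.0 CPM in γδ IELs of the 8 tested tumors and at 562 CPM in tumor 5.

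The interaction calls depended on which tumors entered. Tumor 5, with 9 γδ IELs, held Mki67 at 562 CPM, all 75 UMIs in 2 barcodes of over 10000 UMIs. With tumors 5 and 9 added, 0 genes were called (edgeR, 225 at an unadjusted p under 0.05). With γδ IELs and CD8αβ T cells of over 10000 UMIs left out 19 were, 10 of them among the 23. In mucosa 88 of 1197 γδ IELs were over 10000 UMIs, and they held 278 of 446 Mki67 UMIs and 391 of 556 Pclaf UMIs. Without mucosa 1, 2 or 3 or without tumor 2, 6 or 8 the count was 12, 12, 10, 12, 15 or 12, and DESeq2's Wald test called 8. A Mki67 UMI was found in 10.1% of mucosal and 4.40% of tumor γδ IELs, or 3.57% and 1.89% after thinning to 1000 UMIs, which are 41 and 3 barcodes. Top2a, the other cycling gene counted above, was found in 11.8% and 10.7%, or 4.26% and 3.77% after thinning.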

How the data were processed

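Single cells of 10 colon tumors and 3 adjacent mucosa samples were profiled by the authors with the 10x Chromium 3′ v3.1 kit. The deposited values are raw UMI counts per gene and barcode (32285 genes), made with Cell Ranger 6.0.0 against mm10 per the submitters' processing notes. Groups and mice came from the labels. The members and gene lists were chosen with earlier results of these data known. Positions of named genes were taken from the GENCODE annotation of GRCm38, where 136 of 136 identifiers matched.

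Barcodes were filtered and chosen by the rule given in the report, the γδ IEL counts were summed per library, and libraries with at least 10 γδ IELs were tested with edgeR 4.0.16 (R 4.3.3) using TMM scaling, filterByExpr and the quasi-likelihood test with Benjamini-Hochberg adjustment over all genes tested. A gene was called at an adjusted p under 0.05. The scripts were tested on simulated counts. CPM values use all UMIs of the chosen barcodes as the denominator. The 11 genes of the rule were left out of tests. Shares were tested by exact permutation within mouse with 3 denominators as a family. The 10 tumors came from 3 mice, so that tumors are not independent animals.

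Named genes were the 6 markers and the rule genes, up to 12 per direction by fold among called genes without overlap that had at least 50 CPM and 2 times the level of other barcodes, and up to 5 per list, called ones first. For the contrasts with CD8αβ T cells up to 8 per direction were named, without the other-barcode and overlap criteria for the interaction. Alternatives were DESeq2 1.42.0, other scalings and filters, other barcode criteria, removal of doublets called from simulated neighbors, thinning, a mouse block, and leaving out each library. Doublets stayed in unless stated, and the caller marked 342 to 1812 barcodes per library. The replicate numbers of the labels do not pair libraries, and the mouse does. The correlation of a mouse's tumor and mucosa deviations was -0.07, -0.27 and -0.40 for mice A, B and C. Intervals over UMIs cover counting error only. The p-values measure the spread between libraries. Some genes of the lists are not reported here.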

Additional observations from a re-analysis of the deposited data

Results flagged for a closer look

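Single libraries stood apart from the rest of their group in 10 of 77 groups of values tested with Dixon's criterion, where chance gives about 1 in 20. Among the shares, tumor 3 held 7.12% γδ IELs of T cell barcodes and the next tumor 3.54%. Among the genes named in tumor γδ IELs, P2ry10 stood at 465 CPM in tumor 3 (next 271), Cd5 at 38.7 CPM in tumor 3 (next 11.8), Hif1a at 420 CPM in tumor 8 (next 165), Cd160 at 542 CPM in tumor 6 (next 339) and Gzma at 32622 CPM in tumor 10 (next 12646). Genes of other cell types also stood apart, with Muc2 at 708 CPM in tumor 1 (next 48.4), Phgr1 at 367 CPM in tumor 2 (next 69.6), and Cxcl2 and Il1b at 4415 and 1993 CPM in tumor 8 (next 690 and 424).

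The tumor difference of γδ IELs was not that of CD8αβ T cells for 10 named genes, by edgeR's test of the interaction. The log2 difference was 2.17 for Tcrg-C4, a description since the classes were chosen by Trdc, and 1.84 for Cd7. It was -7.16 for Sprr2a3, -6.85 for Hist1h1b, -4.85 for Hist1h2ae, -4.61 for Pclaf, -4.43 for Hist1h2ap, -4.27 for Cenpf, -4.21 for Krt20 and -4.13 for Mki67. Sprr2a3 and Krt20 are epithelial genes at 221 and 147 CPM in mucosal γδ IELs and 0 and 1.47 CPM in tumor γδ IELs, and the fitted value for Sprr2a3 depends on the prior count since its tumor libraries were at 0. Over all alternatives 129 of 190 values of these genes kept the call and 0 of the 10 genes kept it throughout, with Krt20 called under 4 and Sprr2a3 under 5 of 19. None of the 10 was called by edgeR once tumors 5 and 9 were added, when 225 genes had an unadjusted p under 0.05.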

How the results depend on the processing

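Averaged over mice, the 3 shares kept their direction under all alternatives, but within mouse A the share per 100 epithelial barcodes turned with barcodes thinned to 2000 UMIs, from 0.726 in mucosa to a mean of 0.853 in its tumors. That setting left out barcodes under 2000 UMIs. It took mucosa 2 from 315 to 54 γδ IELs and from 7935 to 7442 epithelial barcodes. Without mucosa 1 or mucosa 2 and its mouse the smallest exact p is 0.0667, which each share gave. Without mucosa 1 or 2 the differences were -4.11 and -6.21 percentage points of retained barcodes, -21.7 and -23.3 points of T cell barcodes and -5.58 and -10.8 per 100 epithelial barcodes. Without mucosa 3 the exact p was 0.04. The 172 genes called between tissues became 1241 without the filter on low counts, 307 with at least 20 barcodes per library, 63 with mucosa thinned to the tumor sums, 18 with mixed barcodes left out (tumor 3 alone on the tumor side), and 48 to 278 with single libraries left out. With the mouse as a replicate block 99 were called (97 shared with the 172), and with tumors summed per mouse and that block 94. Over 41 named genes, 803 of 939 values kept the call, 135 lost it and 1 reversed, Igkc at -0.64 with mixed barcodes left out. The 356 genes called against CD8αβ T cells became 743 without the filter, 161 with 20 barcodes and 249 to 347 with single libraries left out. They became 712 with γδ IELs and CD8αβ T cells of over 10000 UMIs left out. The 23 interaction calls became 132 without the filter, 11 with 20 barcodes, 8 with DESeq2's Wald test, 10 to 25 with single libraries left out, and 0 with at least 5 barcodes per library (225 at an unadjusted p under 0.05 by edgeR). The settings of 5 barcodes, of 10000 UMIs and of mixed barcodes left out of T cell barcodes too were chosen after seeing the data. Leaving out mixed barcodes could not be run for either comparison with CD8αβ T cells, as no tumor library kept enough barcodes. The causes were not tested, apart from the smaller sets of libraries that the settings themselves impose. The sums of the 8 tested tumors held 68118 to 142083 UMIs.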

Other observations

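The following genes were chosen after their values were seen. Trdv4, a δ variable segment (chr14:54074905-54075515), had 110 UMIs in 15 of 159 tumor γδ IELs and 40 UMIs in 20 of 1197 mucosal γδ IELs. Tumor 8 held 63 of them in 5 barcodes with up to 19 in 1 barcode, tumor 10 held 20 in 1 barcode and tumor 5 held 12 in 1 barcode. Mucosa 1, 2 and 3 held 25, 6 and 9. Areg, which encodes the epithelial growth factor amphiregulin, had 140 UMIs in 8 tumor γδ IELs and 72 UMIs in 22 mucosal γδ IELs. Of the tumor UMIs, 80 lay in 2 barcodes of tumor 8 and 36 in 1 barcode of tumor 10.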
